A study of Mus musculus with 12 samples.

Results

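CpG-island-like sites were defined as autosomal CpG sites with at least 12 CpG sites, itself included, within 100 bp on each side, and are called dense sites here. Of 20383623 autosomal sites among 21867550 CpG sites in all, 1449467 were dense. Dense sites at most 200 bp apart were merged into 39998 stretches of at least 5 dense sites, which held 1419531 of them, with a median of 18 dense sites and a median length of 257 bp. The rule uses only the positions of CpG sites and no methylation value.

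The methylation of these sites was measured by enhanced reduced representation bisulfite sequencing (eRRBS), in which genomic DNA cut with MspI, BfaI and MseI is treated with bisulfite, which makes unmethylated cytosines read as T. All 12 lines were mouse embryonic stem (ES) cells with a triple knockout (TKO) of Dnmt1, Dnmt3a and Dnmt3b, which received a pPyCAGIZ vector with a human enzyme, were selected in 50 µg/ml Zeocin for 10 days according to the labels and were then kept in 25 µg/ml. There were 6 groups of 2 separately derived lines: WT DNMT3A, WT DNMT3B (set a), DNMT3B N656I, a second set of WT DNMT3B lines (set b), DNMT3B K777A and DNMT3B N779A. DNMT3A and N656I were compared with set a, and K777A and N779A with set b. As all lines lack DNMT1, the enzyme that copies methylation after replication, methylation in them is not maintained by it. Neither the level of each enzyme in each line, nor cells with the empty vector, nor the non-conversion of each library was analysed here.

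CpG islands are short stretches in which CpG is not depleted, and most lie at the starts of genes. In normal cells those at active or poised promoters stay free of methylation, while some within gene bodies, at repeats and at germline genes become methylated during development. DNMT3A and DNMT3B, the de novo methyltransferases, carry an ADD domain, which does not bind the histone tail where it has the methylation typical of active promoters, and a PWWP domain, which binds a histone methylation typical of transcribed gene bodies.

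The sequences below show what such stretches look like. They were read from GRCm38 (RefSeq) on the forward strand, 5′ to 3′, with each CpG in capitals. The first 4 come from stretches that reached a methylation of 20% or more in both lines of at least 1 group, the 5th is a soft-masked repeat of that kind, and the last 2 stayed near 0 or low. For stretches over 300 bp, the 300 bp with the most CpG sites are shown, and no annotated UTR is included.
Notch1 exon, chr2:26465449-26465634: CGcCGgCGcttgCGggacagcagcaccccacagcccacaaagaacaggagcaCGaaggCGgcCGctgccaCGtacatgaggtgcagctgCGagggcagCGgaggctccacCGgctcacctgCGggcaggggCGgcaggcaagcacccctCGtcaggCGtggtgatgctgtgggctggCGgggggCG
Nrxn2 exon, chr19:6481300-6481542: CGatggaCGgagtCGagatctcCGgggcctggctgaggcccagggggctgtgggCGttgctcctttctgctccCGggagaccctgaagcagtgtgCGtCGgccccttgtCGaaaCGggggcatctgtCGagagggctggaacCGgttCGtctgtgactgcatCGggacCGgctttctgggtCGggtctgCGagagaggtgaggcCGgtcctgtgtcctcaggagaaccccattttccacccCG
Fat1 exon, chr8:45023314-45023613: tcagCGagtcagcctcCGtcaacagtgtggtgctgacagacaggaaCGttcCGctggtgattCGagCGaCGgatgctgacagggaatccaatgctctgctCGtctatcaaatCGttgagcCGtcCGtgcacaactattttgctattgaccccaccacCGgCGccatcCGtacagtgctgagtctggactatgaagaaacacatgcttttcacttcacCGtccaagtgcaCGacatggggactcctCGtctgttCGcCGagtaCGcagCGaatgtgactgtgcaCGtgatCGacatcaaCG
Srrm2 exon, chr17:23819885-23820184: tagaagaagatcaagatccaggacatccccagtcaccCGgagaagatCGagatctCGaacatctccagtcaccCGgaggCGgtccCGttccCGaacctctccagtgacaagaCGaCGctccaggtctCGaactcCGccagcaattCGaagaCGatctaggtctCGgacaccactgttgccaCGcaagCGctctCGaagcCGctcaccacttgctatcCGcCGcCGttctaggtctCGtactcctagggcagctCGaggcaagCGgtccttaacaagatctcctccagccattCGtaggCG
Repeat, nearest start Tas2r118, chr6:23919313-23919425: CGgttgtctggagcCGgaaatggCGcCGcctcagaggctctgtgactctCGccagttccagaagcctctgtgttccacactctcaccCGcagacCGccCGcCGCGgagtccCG
Actb start, chr5:142905942-142906241: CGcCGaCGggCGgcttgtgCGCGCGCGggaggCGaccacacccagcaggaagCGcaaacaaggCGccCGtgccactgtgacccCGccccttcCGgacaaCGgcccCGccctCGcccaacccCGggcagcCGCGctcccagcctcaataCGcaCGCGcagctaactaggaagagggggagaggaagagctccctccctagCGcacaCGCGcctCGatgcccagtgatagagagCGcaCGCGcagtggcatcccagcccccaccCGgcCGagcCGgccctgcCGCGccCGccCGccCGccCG
Ribosomal DNA copy, chr17:39844265-39844564: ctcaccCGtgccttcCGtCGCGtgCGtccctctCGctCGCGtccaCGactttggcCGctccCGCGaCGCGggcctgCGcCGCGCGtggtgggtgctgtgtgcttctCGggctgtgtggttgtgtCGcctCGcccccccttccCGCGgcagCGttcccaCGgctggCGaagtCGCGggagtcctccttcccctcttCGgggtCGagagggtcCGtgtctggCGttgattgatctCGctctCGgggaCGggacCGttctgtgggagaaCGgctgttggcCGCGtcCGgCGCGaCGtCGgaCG
The Notch1 and Nrxn2 sequences held 17 and 19 CpG sites, an observed-to-expected CpG ratio of 0.712 and 0.743. The Actb sequence held 39 CpG sites at a ratio of 0.978.

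Reads on CpG sites numbered 16224222 to 36029921 per line, of which 1501718 to 4278034 were on dense sites. These reads fell on 25.5% to 59.7% of the dense sites in 11 lines. In DNMT3B (set a) replicate 2 they fell on only 8.58%, with a mean of 12.1 reads per covered dense site against 4.01 to 6.47 in the other lines, so this library stands apart, and values with and without it are given where it changes a comparison. Between 32230 and 141403 dense sites per line had at least 10 reads, and the level of a line is the mean methylation of those sites. A level is an average over cells, so that few fully methylated alleles cannot be told apart from sparse methylation of many.

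Dense sites had little methylation in every line. Their level was 2.13% and 2.78% in the DNMT3A lines, 1.54% and 1.79% in the set a lines and 1.25% and 1.11% in the N656I lines. It was 1.64% and 1.36% in the set b lines, 1.03% and 0.841% in the K777A lines and 1.91% and 1.77% in the N779A lines. The 2 DNMT3A lines were the highest and the 2 K777A lines the lowest of the 12. All other autosomal sites with at least 10 reads had levels between 6.57% in K777A replicate 1 and 39.5% in DNMT3A replicate 2. In all 12 lines the dense sites lay below the other sites, by 6.40-fold to 18.3-fold (exact two-sided sign permutation test over the 12 lines, p = 0.000488, the smallest it can give). Between 89.5% and 93.7% of the dense sites with 10 reads had no methylated read. Sites at 20% or more made up 3.84% and 4.38% of those in DNMT3A and 1.15% and 1.19% in K777A.

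The level fell steeply with CpG density. Just outside the rule, sites with 10 to 11 CpGs in the window had levels of 17.6% and 19% in the DNMT3A lines, against 8.52% and 9.36% at 12 to 14 CpGs, 2.31% and 2.65% at 15 to 19 CpGs and 0.645% and 0.700% at 20 or more. The K777A lines went from 2.89% and 4.23% at 10 to 11 CpGs to 2.04% and 2.46%, then 1.17% and 0.882%, then 0.866% and 0.466%. Each of these 3 steps was a decrease in all 12 lines (exact two-sided sign permutation test over lines, adjusted p = 0.000488 over 8 class comparisons). At 20 or more CpGs the DNMT3A lines overlapped with set a, at 0.659% and 0.645%, and lay just above set b, at 0.636% and 0.632%. The N779A lines were the highest there, at 1.15% and 1.23%.

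**Figure D1:**
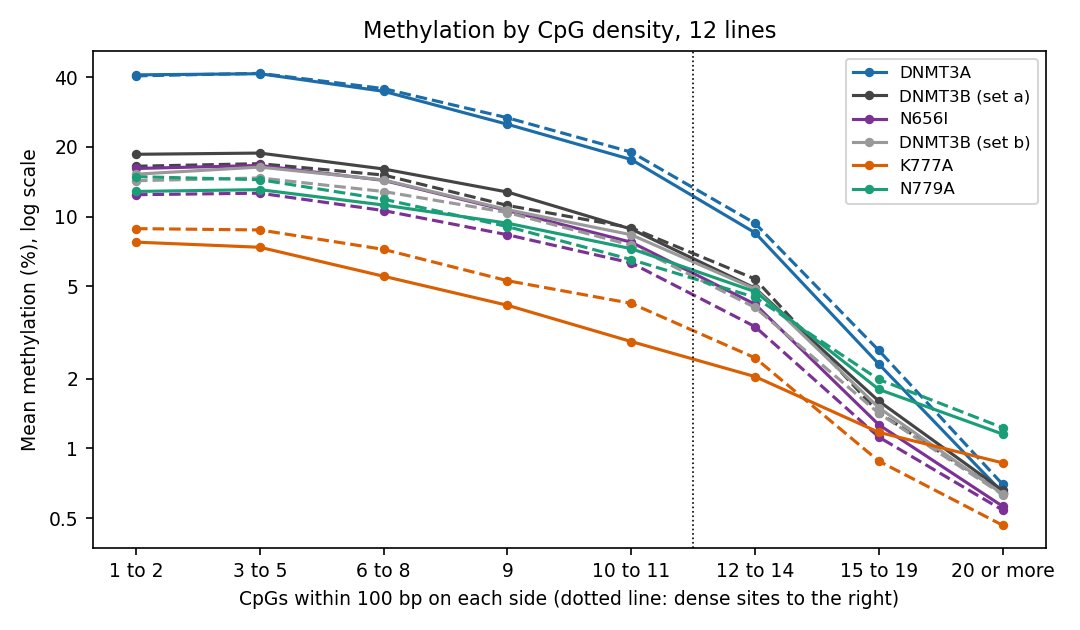
Mean methylation in percent (log scale) of autosomal sites with at least 10 reads, by the number of CpGs within 100 bp on each side, with 1 line per cell line (solid, replicate 1, and dashed, replicate 2) and the dense sites to the right of the dotted line. The DNMT3A lines fall from about 40.9% and 40.5% at 1 to 2 CpGs to 0.645% and 0.700% at 20 or more, where the N779A lines lie highest.

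DNMT3A was compared with DNMT3B at dense sites. The DNMT3A level was 2.45% ± 0.462 (SD, n = 2) and the set a level 1.66% ± 0.179 (SD, n = 2), a difference of 0.792 percentage points with no overlap between the lines. At the other sites DNMT3A had 39.2% ± 0.466 and set a 17.1% ± 1.2, so the dense level was 6.25% of the level at other sites in the DNMT3A lines and 9.78% in the set a lines. This relative dense level also separated the 4 lines, at 5.47% and 7.03% against 8.56% and 11%. The difference of -3.53 percentage points was -2.30 without set a replicate 2, -6.17 at sites with at least 20 reads and -6.96 on the 1024 shared dense sites. With 2 lines against 2, an exact permutation test cannot give a p under 0.33, which is the p of both comparisons. The dense-site difference was 0.133 percentage points in unmasked stretches at gene starts and 0.281 at 15 or more CpGs. At sites with at least 20 reads the lines overlapped, with a difference of 0.235, and without DNMT3A replicate 2 the difference was 0.465.

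The DNMT3B mutants differed from WT by fractions of a percentage point when each line was read at its own dense sites with at least 10 reads. N656I had 1.18% ± 0.0956 (SD, n = 2) against 1.66% ± 0.179 in set a, without overlap (exact permutation p = 0.33), and at sites with at least 20 reads the difference was -0.903 percentage points against -0.485. It was -0.180 at 15 or more CpGs and -0.154 in unmasked stretches at starts. On the 1524 dense sites that had 10 reads in all 4 of these lines the order turned, with 2.27% and 2.11% in the N656I lines and 1.96% and 1.84% in set a. The relative dense levels overlapped, at 7.91% and 9.29% for N656I against 8.56% and 11%, and without set a replicate 2 their difference was 0.0398 percentage points in the other direction.

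K777A had 0.934% ± 0.131 (SD, n = 2) against 1.5% ± 0.201 in set b, without overlap (exact permutation p = 0.33). This difference of -0.566 percentage points was -0.00697 percentage points in unmasked stretches at gene starts, where the K777A lines had 0.883% and 0.483% and the set b lines 0.705% and 0.676%. At 15 or more CpGs it was -0.124, and the lines overlapped, at 0.926% and 0.572% in K777A and 0.898% and 0.849% in set b. The relative dense level of K777A was 15.6% in replicate 1 and 10.1% in replicate 2, and overlapped that of set b, 10.7% and 9.73%. Replicate 1 also stands apart, since 59.8% of its sites with 10 reads were dense, against 9.74% to 33.2% in the other lines, and its level at other sites rests on 37203 sites. In unmasked stretches at starts it was 13.5% and 5.82% in K777A, above the 4.59% and 4.84% of set b, again with the 2 K777A lines far apart. On the 916 dense sites with 10 reads in all 4 lines the order turned, with 21.2% and 14.7% in K777A below 25.5% and 23.6% in set b, and the dense-site difference was -1.59 percentage points.

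N779A had 1.84% ± 0.0948 (SD, n = 2) at dense sites, above the 1.5% ± 0.201 of set b, while at the other sites it had 13% ± 0.898 against 14.7% ± 0.998. The lines did not overlap at dense sites (exact permutation p = 0.33), but at sites with at least 20 reads they did, with a difference of 0.130 percentage points against 0.339, which without set b replicate 2 was 0.198. The relative dense level was 15.4% and 13% in the N779A lines, above the 10.7% and 9.73% of set b. In unmasked stretches at gene starts the N779A lines had 1.14% and 1.28% against 0.705% and 0.676%, a ratio of 1.75. On the 628 dense sites with 10 reads in all 4 lines the levels overlapped, at 2.55% and 3.19% against 2.93% and 2.83%. The relative levels on shared sites were 25.7% and 25.3% against 22.4% and 24.1%, a difference of 2.23 percentage points against 4.03. The 2 sets of WT DNMT3B lines, which carry the same enzyme, overlapped at dense sites with at least 10 reads and in the relative level. At least 20 reads separated them, at 2.31% and 1.98% in set a and 1.55% and 1.90% in set b. This difference of 0.423 percentage points exceeds the 0.130 between N779A and set b at that minimum. With at least 10 reads the WT sets differed by 0.163, and N779A and set b by 0.339. They were also separate at dense sites with at least 5 reads, on shared sites, with all reads weighted equally and in unmasked stretches at starts, and in the relative level on shared sites and at 15 or more CpGs.

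**Figure D2:**
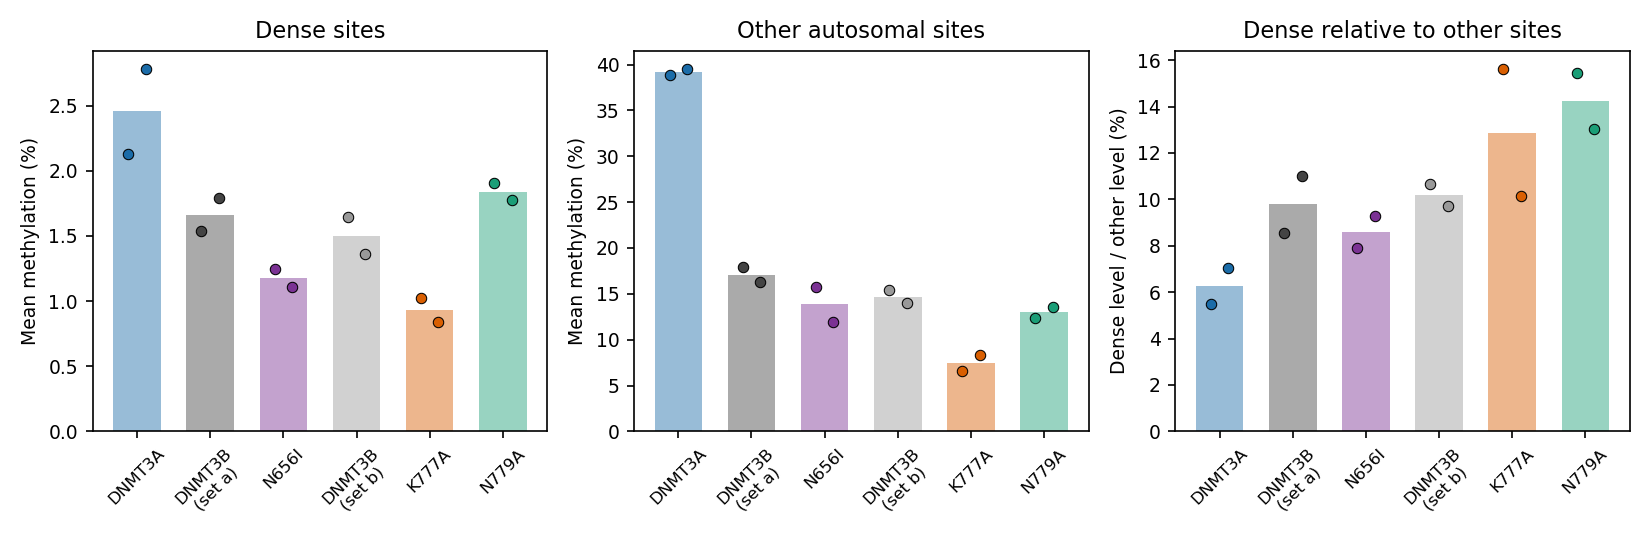
Mean methylation in percent of dense sites (left) and of all other autosomal sites (middle), and the dense level as a percentage of the other level (right), with a point for each line and a bar for the mean of the 2 lines of a group. The DNMT3A lines are highest in the first 2 panels and lowest in the third, where the N779A lines lie at 15.4% and 13%.

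The methylation of dense sites varied with where their stretch lay. Of the 39998 stretches, 14224 were soft-masked repeats, in which at least 50% of the dense sites lie in masked sequence. Of the unmasked ones, 15249 lay within 1 kb of an annotated transcription start (GENCODE vM21), 7390 elsewhere in genes and 3135 between genes. Unmasked stretches at starts had levels between 0.483% and 1.28% in all 12 lines. Dense sites in soft-masked stretches had 21.6% and 21.7% in the DNMT3A lines, 12.2% and 12.9% in set a, 15.8% and 10.7% in N656I, 12% and 9.91% in set b, 3.58% and 4.55% in K777A and 8.48% and 9.16% in N779A. They lay 3.67-fold to 16.3-fold above unmasked stretches, in 12 of 12 lines (exact two-sided sign permutation test, adjusted p = 0.000488). These levels rest on 672 to 2790 soft-masked dense sites per line, of the 258783 in the genome, and reads from near-identical repeat copies can be placed on the wrong copy.

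With all densities together, unmasked stretches within genes, away from starts, lay between. They had 8.32% and 10.2% in the DNMT3A lines, 4.94% and 5.13% in set a, 4.11% and 3.04% in N656I, 4.36% and 3.86% in set b, 1.80% and 2.06% in K777A and 3.84% and 3.95% in N779A. They exceeded stretches at starts in all 12 lines, by 2.04-fold to 10.6-fold (exact sign permutation test, adjusted p = 0.000488). The comparison was then made within density classes. At 12 to 14 CpGs the DNMT3A lines had 19.3% and 19.7% in gene bodies and 2.13% and 2.29% at starts, and the K777A lines 3.70% and 4.18% against 0.938% and 0.816%. At 20 or more CpGs the DNMT3A lines still had 1.98% and 2.10% in gene bodies and 0.525% and 0.588% at starts. Gene bodies were above starts in 12 of 12 lines in each of the 3 density classes (exact sign permutation test, adjusted p = 0.000488 over 4 comparisons made after the data were seen).

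Among unmasked intragenic stretches, 4530 overlapped a coding exon and 2860 did not. Those with a coding exon had 9.63% and 12% in the DNMT3A lines, 4.73% and 4.83% in set b and 1.90% and 2.32% in K777A. Those without had 6.19% and 7.19%, 3.69% and 1.99%, and 1.55% and 1.5%. The exonic stretches were higher in 12 of 12 lines, by 1.23-fold to 2.43-fold (exact sign permutation test, adjusted p = 0.000488). The density of the exonic and non-exonic stretches was not matched in this comparison.

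**Figure D3:**
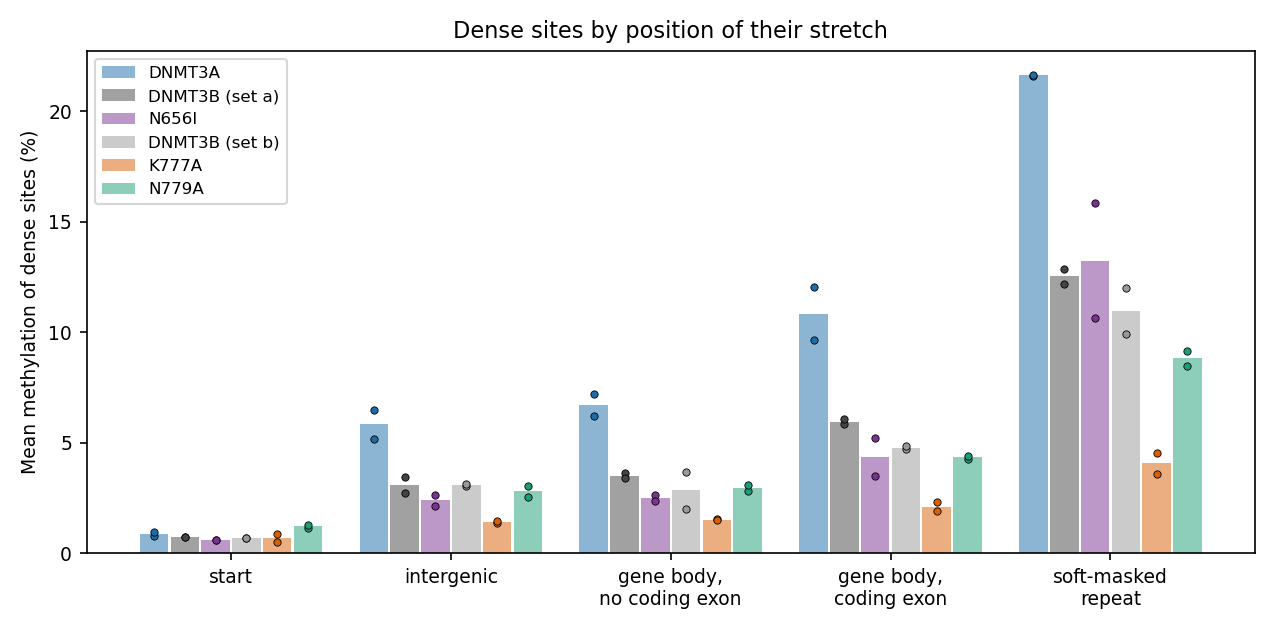
Mean methylation in percent of dense sites with at least 10 reads, by the position of their stretch, with a bar for the mean of the 2 lines of each group and a point for each line. The first 4 classes are unmasked, and the DNMT3A lines rise from 0.786% and 0.961% at starts to 21.6% and 21.7% in soft-masked repeats.

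Within a stretch, the 3 outermost dense sites at each end were more methylated than the inner ones. In the DNMT3A lines the ends had 7.09% and 8.14% and the inner sites 1.42% and 1.75%, and in the K777A lines 1.74% and 1.96% against 0.967% and 0.683%. The ends were higher in all 12 lines, by 1.80-fold to 4.98-fold. At unmasked stretches at starts this gradient was 1.11-fold to 3.09-fold, also in 12 of 12 lines (exact sign permutation test, adjusted p = 0.000488 for both). Sites at the ends have a lower CpG density in their window, by construction.

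The level of dense sites also varied with the bases around the CpG. For CpGs in the palindromes TCGA and GCGC, which differ on either side of the CpG, the ratio of the dense-site levels was 4.26 and 5.27 for set a and 8.74 and 6.61 for N656I. It was 3.42 and 4.19 for set b, but 1.04 and 1.03 for N779A and 0.850 and 1.92 for K777A. For DNMT3A it was 2.02 and 1.99, whereas at the other autosomal sites it was 0.728 and 0.710 there. N656I lay above set a and N779A and K777A below set b without overlap, with 2 lines each. The ratio of ACGT to CCGG at dense sites was 1.34 and 3.38 in the K777A lines and 0.426 and 0.535 in set b, and at the other sites 6.09 and 8.09 against 0.556 and 0.554. These dense-site ratios rest on 539 to 2162 TCGA sites per line and, in K777A, on 965 and 1669 ACGT sites.

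Dense stretches that did gain methylation were counted as those at 20% or more in both lines of a group, among those with at least 50 reads and 5 covered sites in both. Reads here are summed over sites, so that a read pair over several CpGs counts at each of them, and these site reads are not independent molecules. In DNMT3A, 163 of 10779 stretches were at this level, or 1.51%, against a background of 39.6% over dense stretches and 1-kb tiles of other sites together. The counts were 11 of 4648 in set a (background 4.59%), 41 of 12062 in N656I (7.2%), 6 of 7427 in set b (3.18%), 3 of 12852 in K777A (0.267%) and 13 of 9508 in N779A (2.25%). In each group the dense share was below the background.

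Stretches at 20% or more in 1 line were partly so in the other. Of the 283 such stretches in DNMT3A replicate 1, 57.6% were also at 20% in replicate 2, where 2.68% of all measured stretches were. In N656I it was 29.7% of 138, where 0.713% of all were, and in K777A 3 of 9. It was 47.8% in set a, 20.7% in set b and 25.0% in N779A, where 1.08%, 0.404% and 0.557% of all were. In the other direction it was 56.4% in DNMT3A, 22.0% in set a and 47.7% in N656I. It was 20% in set b, 18.8% in K777A and 24.5% in N779A. The stretches that gained in DNMT3A were small, with a median of 16 dense sites against 69 in all those measured, and a median highest density of 16 against 28 CpGs. Of the 163, 72 were intragenic with a coding exon, 25 intragenic without, 25 intergenic, 27 soft-masked and 14 unmasked at a start. These make up 11.3%, 5.77%, 5.27%, 15.1% and 0.155% of the stretches measured in each class. In N656I the 41 comprised 17 of 238 soft-masked stretches (7.14%), 16 of 732 with a coding exon (2.19%) and none of the 9949 unmasked stretches at starts.

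The 163 stretches chosen in DNMT3A were described in the other lines, where at least 20 site reads covered them. Their median level was 15.5% and 11.1% in set a, 14.8% and 8.51% in N656I, 11.9% and 8.99% in set b, 9.13% and 10.9% in N779A and 3.72% and 5.62% in K777A. The medians of all stretches in those lines were between 0.0% and 1.05%. Of the 73 that were also measured in both N656I lines, 9 were at 20% in both, which is 9 of the 18 N656I stretches measured in DNMT3A.

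Several of the highest stretches were coding exons. The Notch1 exon (nearest start Mir6996, 4485 bp away, 17 dense sites), in the gene of a signalling receptor, had 44.7% and 25.6% in the DNMT3A lines, 46.7% and 50.0% in set a, 18.4% and 6.29% in N656I, 33.3% and 12.5% in set b, 28% and 11% in K777A and 13.3% and 24.5% in N779A. All 12 lines had some methylation there, on 45 to 266 site reads. The Nrxn2 exon, in the gene of a synaptic adhesion protein, had 53.1% and 25.0% in DNMT3A, 31.0% and 31.3% in set a, 26.3% and 21.3% in N656I, 32.0% and 23.6% in set b, 10.3% and 8.33% in K777A and 15.4% and 14.8% in N779A. It was chosen for its level in both WT sets. Only the K777A and N779A lines were under 20%.

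The Fat1 exon is in the gene of a giant cadherin, a cell adhesion protein. This stretch at chr8:45023270-45024207, with 58 dense sites, lies 885 bp from the start of the non-coding gene Gm2366 and is therefore counted among the starts. It had 50.2% and 64.1% in DNMT3A, 27.5% and 35.7% in K777A and 31.4% and 18.8% in N779A, and 43.8% in set a replicate 1. It was the highest stretch in K777A, where set b replicate 2 had 9.30% on 43 site reads. The N656I lines, set a replicate 2 and set b replicate 1 had under 20 site reads there. A second Fat1 exon at chr8:45037011-45037282 had 27.3% and 26.8% in K777A, 52.3% and 53.3% in DNMT3A, 26.8% and 76.9% in N779A and 80.6% in set a replicate 2, but 15.0% and 0.0% in N656I, on 40 and 24 site reads, while both set b lines had under 20 site reads. The Srrm2 exon, in the gene of a splicing factor, had 59 dense sites and 27.5% and 30% in N779A, 41.7% and 40.9% in set b, 22.7% and 36.2% in DNMT3A, 56.4% in set a replicate 1, 33% and 19.9% in N656I and 6.04% and 18.5% in K777A.

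Other stretches were highest in the DNMT3A lines, for which they were chosen. The Yeats4 exon, in the gene of a histone acetylation reader, had 67.4% and 70.9% in DNMT3A, 35.7% in set a replicate 1, 37.7% and 6.38% in N656I and 8.33% and 8.62% in K777A. The Ccr7 exon, in the gene of a chemokine receptor, had 74.5% and 74.7% in DNMT3A on 149 and 75 site reads, 7.69% in N656I replicate 2, 11.1% in N779A replicate 1 and 0.0% of 73 site reads in set b replicate 2, which allows up to 4.11%. The repeat near Tas2r118 had 77.8% and 77.4% in DNMT3A and between 2.13% and 33.3% in the other lines with at least 20 site reads. The small non-coding RNA gene Gm23973, at chr7:103271607-103271708, had 84.5% and 98.7% in DNMT3A on 58 and 75 site reads, and between 0.0% and 42.6% in the other lines with at least 20.

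A soft-masked intronic stretch in Fgf14, at chr14:124415587-124416023, had 41.9% and 49.1% in N656I, 38.9% and 19.1% in set a, 39.3% and 20% in set b and 7.02% and 4.39% in K777A. It was chosen for its level in N656I, and DNMT3A had 0.0% of 21 and 6.67% of 15 site reads there, where 0 of 21 allows up to 14.3%. In Rnd2, the highest in N779A with 30.9% and 35.6%, the DNMT3A lines had 61.1% and 64.7% and the set b lines 11.1% and 17.6%.

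**Figure D4:**
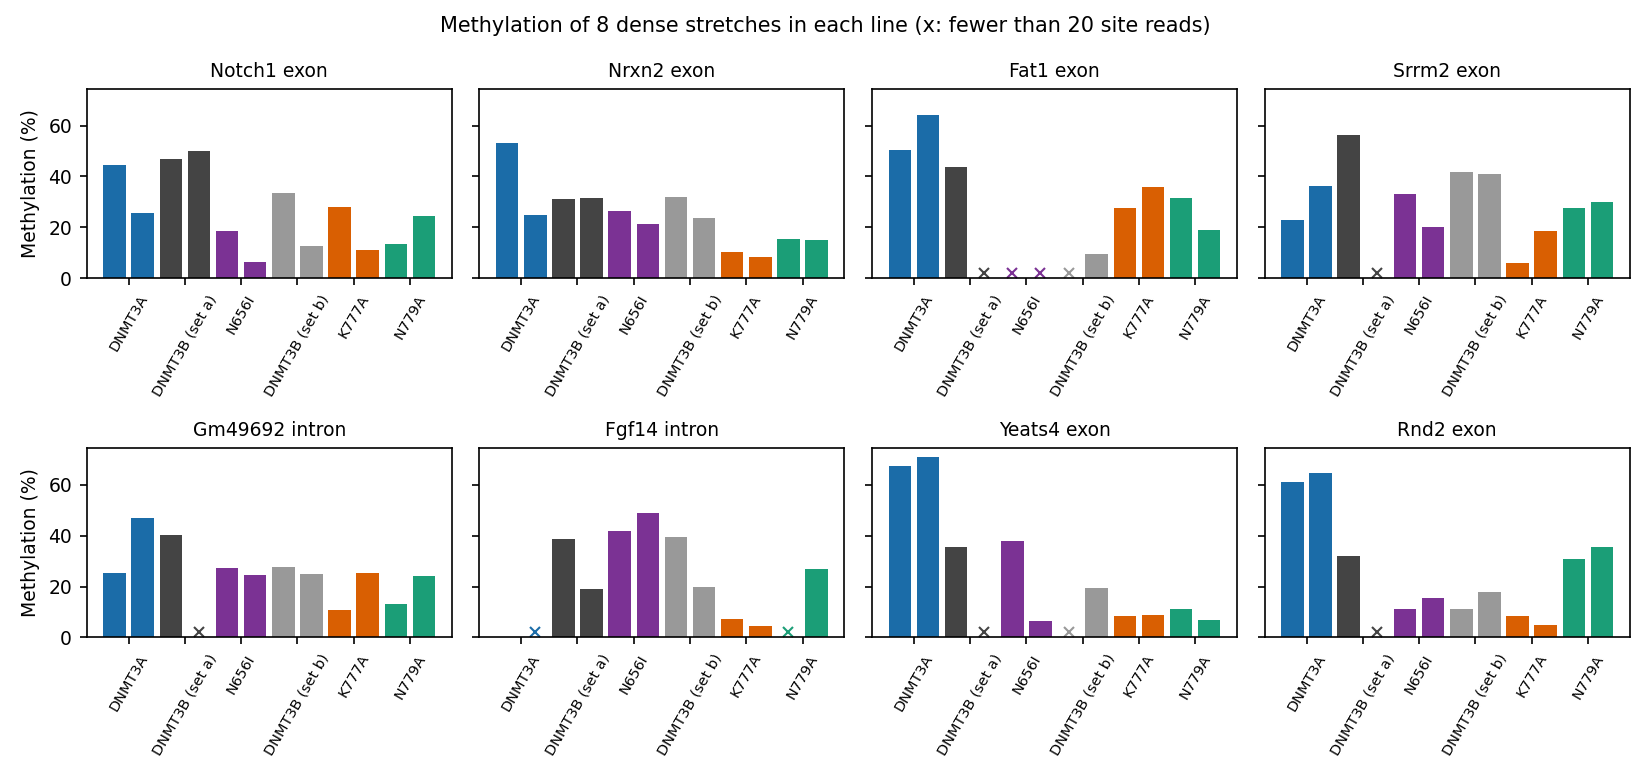
Methylation in percent of 8 dense stretches, with a bar for each of the 12 lines in the order replicate 1 and replicate 2 of each group, and a cross where fewer than 20 site reads covered the stretch. In the Fgf14 intron the N656I lines, at 41.9% and 49.1%, lie above the K777A lines, at 7.02% and 4.39%.

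Differences of single stretches between groups were tested on the methylated and unmethylated site reads with edgeR's quasi-likelihood test and Benjamini-Hochberg adjustment. Features with at least 20 site reads and 3 covered sites in all 4 lines were fitted, dense stretches and 1-kb tiles of other sites together. Between DNMT3A and set a, 1 of 6901 dense stretches was called at an adjusted p under 0.05 (background 0.00742%), and 96 had an unadjusted p under 0.05. The tiles had a median log2 odds change of 2.51 there, yet only 2 of 26965 features were called in all. Few calls thus do not show that dense stretches were alike. Between N656I and set a, edgeR called 0 of 7154 (background 0.0%), 68 had an unadjusted p under 0.05, and limma and a quasi-binomial regression also called 0. Between K777A and set b it called 1 of 11156 (background 0.00196%), with 166 under an unadjusted 0.05, and between N779A and set b 1 of 9962 (background 0.00309%), with 163. Between the 2 WT sets edgeR called 0 of 6147 (background 0.0%), and 23 had an unadjusted p under 0.05. In every comparison the dense stretches with such an unadjusted p were a smaller share than the 0.05 expected without any difference. The 215 dense stretches called for DNMT3A without set a replicate 1, and the 12 called for N656I, rest on set a replicate 2 as the lone WT line, assumed to vary like the mutant or DNMT3A lines.

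The single call was the same stretch in the 3 comparisons. It lies at chr17:39843014-39848823, holds 580 dense sites, the most of any stretch, and covers Gm26917, CT010467.1, Gm42418 and AY036118, annotated as lincRNA and rRNA, a partial copy of the ribosomal DNA unit. Its level was 0.605% and 0.797% in the DNMT3A lines, 1.57% and 1.48% in set a, 1.58% and 1.75% in N656I, 1.28% and 1.5% in set b, 1.11% and 0.684% in K777A and 1.92% and 2.26% in N779A. DNMT3A lay below set a by 1.15 on the log2 odds scale (-1.15, adjusted p = 7.35e-55), K777A below set b (-0.68, adjusted p = 1.73e-17) and N779A above set b (0.60, adjusted p = 3.03e-65), all by edgeR. In each of the 3 comparisons the lines did not overlap. Other deeply read stretches held similar levels. At chr11:109011737-109012012, N779A had 2.26% and 1.94%, set b 1.21% and 1.68%, and K777A 0.967% and 0.84%, while DNMT3A overlapped set a. Near Taco1os, DNMT3A had 0.44% and 0.44% against 2.18% and 1.37% in set a, while N779A overlapped set b. Whether the differences are particular to the ribosomal DNA copy was not tested, and non-conversion was not analysed.

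Between 53040 and 358315 site reads per line, or 2.73% to 9.28% of all those on dense sites, were placed on this stretch. The genome holds many ribosomal DNA copies that the assembly does not, so the reads of all copies can be placed here. Site reads are not independent molecules, which the size of these p-values does not take into account, and no call was left without the most deeply read sites of each line, with limma without centring or with quasi-binomial regression. The DNMT3A call was also lost without set a replicate 2, the K777A call without K777A replicate 2 and at minima of 10 and 50 reads, and the N779A call without N779A replicate 2 and at a minimum of 10 reads.

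Stretches within 1 kb of a start were read for 5 lists of genes. All 15 housekeeping genes had one, with a median level over genes of 0.179%, and none had a median over lines of 5% or more. A single value above it was 6.70% in Eef2, a translation factor, in N779A replicate 1. Their highest was Gapdh, a glycolytic enzyme, at a median of 1.03% over 11 lines, followed by Ppia, a peptidyl-prolyl isomerase, at 0.636%. Actb, cytoskeletal actin, had a median of 0.308% and a range of 0.0% to 2.45% over 12 lines. Of the 25 developmental regulators, which included Hox, Pax and Gata genes, none reached a median of 5% over lines, and the median over genes was 0.728%. Tbx5, a heart and limb factor picked after its values were seen, had 20.9% and 12.5% in the DNMT3A lines, on 67 and 64 site reads. Nkx2-2, a neural patterning factor, was the highest at 2.57%, with 5.94% and 13% in DNMT3A, 24.1% in set b replicate 1 and 2.08% in set b replicate 2. Wt1, a kidney and gonad factor, followed at 2.31%, with 62.5% in set a replicate 2 on 48 site reads and 4.76% in set a replicate 1.

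The 19 measured imprinted genes had a median over genes of 0.0%. Igf2r, the clearance receptor of a growth factor, was the highest, at 1.28%, followed by Nespas, an antisense transcript, at 1.00%, and Peg3, an imprinted zinc finger gene, had no methylated read in the 11 lines with 20 site reads. Of the pluripotency genes, 7 of 15 had a measured stretch, and Tet1, a methylcytosine dioxygenase, had a median of 4.35% over 8 lines that ranged from 0.0% in 4 of them to 30% on 20 site reads, followed by Klf4 at 0.951%. Pou5f1 and Nanog had no dense stretch.

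Of the 17 measured germline genes, 7 had a median of 5% or more and 1 of 20% or more, with a median over genes of 3.33%. Over all 14548 measured stretches at starts, 365 had a median of 5% or more and 57 of 20% or more, and the median was 0.0%. Dpep3, a testis dipeptidase, had 36.0% and 33.3% in the DNMT3A lines, 19.2% and 9.38% in set a, 28.3% and 5.0% in N656I, 31.7% in set b replicate 2, 2.53% in K777A replicate 1 and 10.4% and 5.0% in N779A. The DNMT3A lines were the highest of the 10 lines measured. Brdt, a testis bromodomain protein, had a median of 23.1% but was measured in 5 lines only, of which K777A replicate 1 and N779A replicate 1 had no methylated read. The lowest included Stag3, a meiotic cohesin subunit, with at most 1.67% in 12 lines. Among the 14 unmasked stretches at starts that gained in DNMT3A was Topaz1, another germ cell gene, with 58.5% and 25.0%.

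Among the most deeply read stretches at starts, the one of Sfi1, a centrosomal protein gene, stood out in every line and was picked after its values were seen. It had 20.1% and 18.9% in the DNMT3A lines, 13% and 14.5% in set a, 14.1% and 12.8% in N656I, 11.5% and 10.2% in set b, 5.28% and 6.68% in K777A and 7.78% and 12.5% in N779A, on 707 to 6744 site reads. The DNMT3A lines were the highest and the K777A lines the lowest. Reads from other copies of this sequence, if placed here, would count in these levels, which was not tested.

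**Figure D5:**
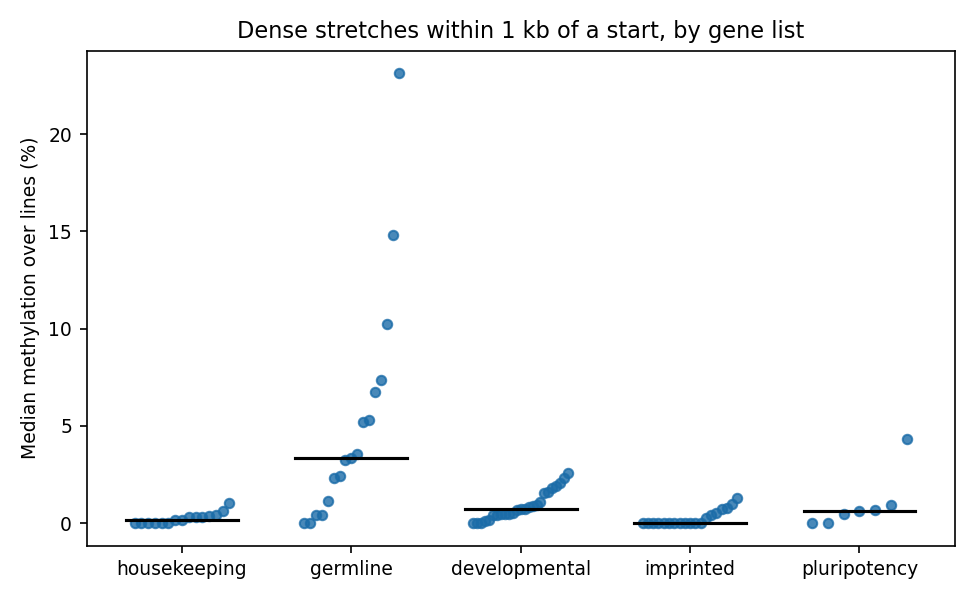
Median methylation in percent over the lines with at least 20 site reads, for dense stretches within 1 kb of the start of each gene of 5 lists, with a point for each gene and a line at the median over genes. The germline genes reach 23.1%, while the highest housekeeping gene lies at 1.03%.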

How the data were processed

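Genomic DNA of 12 lines was measured by eRRBS with paired-end reads. Per the labels and the study's methods, the authors trimmed reads with cutadapt (1.12 in the submitters' processing notes), aligned them to mm10 (GRCm38) with Bismark 0.18.1 and Bowtie 1.2, discarded read pairs with several methylated non-CpG cytosines, collapsed both strands and deposited, per CpG site and line, the raw counts of methylated reads and of all reads. The matrix had 0 columns without a sample. WT DNMT3B lines were put into set a or b by the labels. Set b was matched to K777A and N779A, whose library names also begin with i, and set a to DNMT3A and N656I, whose names do not.

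From these counts, levels, stretches and annotation were computed with Python 3.11.15, numpy 2.4.6 and pandas 2.3.3, and the tests with edgeR 4.0.16 and limma 3.58.1 in R 4.3.3, after a check on simulated data. Site levels required 10 reads. Lines were compared by exact two-sided permutation tests, and features by edgeR's quasi-likelihood test on methylated and unmethylated counts with library factors. The lines of a group were derived separately, and the exact permutation tests take the line as the unit. The sign permutation tests pool the lines of all groups, so they do not measure the spread within a group. The edgeR p-values come from site reads, which are not independent molecules, and their size does not take this into account. They therefore do not measure the spread between lines alone. Depth was 16224222 to 36029921 reads on CpG sites per line. Reads carry no molecular identifiers, and limits given for a count of 0 (3 counts) cover counting error only.

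The sites, gene lists and named stretches were chosen with earlier results of these data known. Named were, for each group, the 5 stretches with the highest level in the lower of both lines, the called stretches, and in each list the 2 genes with the highest and the 1 with the lowest median. Not every stretch so chosen is described. A few others were picked after their values were seen, among them Actb, Topaz1, Sfi1, Nanog, Pou5f1 and Peg3. Alternatives tried were other minimum reads, shared sites, read weighting, density rule, merging distance, restriction sites, very deep sites, other tests and centring, leaving out lines and the replicate block. Restriction to unmasked stretches at starts and leaving out the ribosomal DNA copy were chosen after seeing the data. Chromosomes X and Y were left out of all comparisons.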

Additional observations from a re-analysis of the deposited data

Results flagged for a closer look

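Dense sites on chromosome X, which no comparison above used, also carried methylation. They numbered 57283, of which 170 to 706 per line had at least 10 reads. Their level was lowest in N656I replicate 2, at 2.085%, and highest in DNMT3B (set b) replicate 2, at 9.11%, and exceeded the autosomal dense level in all 12 lines. No control cells were analysed here, so these levels have no background beside them.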

How the results depend on the processing

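The signs of the group differences at dense sites held under most alternatives. On sites shared by all 4 lines, the dense-site difference turned to 0.288 percentage points for N656I and to -0.0103 for N779A, and the relative dense level to 5.62 for N656I and -6.58 for K777A. With at least 15 CpGs the relative level of N656I turned to 0.0390. Leaving out a line gave relative differences from -2.41 to 0.0398 for N656I, turned without set a replicate 2, and from -0.0670 to 5.42 for K777A, turned without K777A replicate 1. Other differences kept their sign without any 1 line, which the lack of overlap between their lines had already fixed. The cause was not tested for any of these.

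Counts of stretches that gained methylation, in the order DNMT3A, set a, N656I, set b, K777A and N779A, were 350, 44, 192, 33, 26 and 89 at a level of 10%, and 74, 5, 8, 0, 0 and 1 at 30%. With at least 20 reads they were 568, 36, 170, 33, 20 and 49, and with 100 reads 29, 1, 9, 1, 0 and 2. In single lines they were 615 to 745, 136 to 201, 174 to 330, 99 to 153, 18 to 66 and 151 to 164, since 1 line alone had to pass. The share over all features is not given for these settings.

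Dense stretches called numbered 0 with limma, with quasi-binomial regression and without very deep sites in the DNMT3A, K777A and N779A comparisons. Centred limma called 14 of 6901 for DNMT3A, where it called 41 of 26965 features in all. It called 0 dense stretches for K777A and 0 for N779A, with 3 of 51057 and 9 of 32324 features in all. Merging at 100 bp gave 2 for DNMT3A and 2 for N779A, among 3 of 26914 and 2 of 32277 features called in all. At least 10 reads gave 0 for K777A and 0 for N779A, and at least 50 reads 0 for K777A. Without 1 line the calls ranged from 0 to 215 for DNMT3A (0 without set a replicate 2, 215 without replicate 1), from 0 to 12 for N656I (12 without set a replicate 1), from 0 to 5 for K777A (0 without K777A replicate 2, 5 without set b replicate 2) and from 0 to 1 for N779A (0 without N779A replicate 2). A lone line was assumed to vary like the other group. In the fits with 215, 12 and 5 dense calls, most of the called features were tiles of other sites. These counts are therefore not particular to dense stretches.

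Same-numbered lines did not deviate together over stretches (r = 0.0235, 0.0107, 0.00122 and 0.0182), so the numbers do not pair the lines. With the replicate block the differences were 0.792, -0.485, -0.566 and 0.339 percentage points. For the relative level they were -3.53, -1.18, 2.68 and 4.03. In this balanced design they equal the differences without the block by arithmetic, so they do not test robustness. The calls, which could change, stayed at 1, 0, 1 and 1. Depth limits all single stretches, most of which had too few reads in at least 1 line to be tested.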

Other observations

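The 41 stretches that gained methylation in N656I were also read in the other lines, as a description with no test, since they were chosen for their level in N656I. Where at least 20 site reads covered them, their median level was 28% and 32.1% in the DNMT3A lines, 17.5% and 13.2% in set a, 15.1% and 14.8% in set b, 10.9% and 15.7% in N779A and 8.04% and 6.67% in K777A.

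Starts among the 14 that gained in DNMT3A included Lhx1, a developmental transcription factor, with 31.7% and 40.0% in the DNMT3A lines and at most 6.45% in every other line measured. The start of Lep, which encodes leptin, had 49.5% and 73.2% in DNMT3A, on 99 and 71 site reads, 34.0% in set a replicate 1, on 47, 27.9% in set b replicate 1, on 43, 11% and 4.0% in N656I, on 82 and 50, and 2.78% in K777A replicate 2, on 72. The start of Slc15a3, a peptide transporter, had 22.9% and 24.1% in DNMT3A, on 61 and 174 site reads, and between 0.0% and 12.7% in the other lines.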
